A study of Homo sapiens with 15 samples.

Results

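The epithelial membrane protein family was examined in A549 cells, a line from a human lung adenocarcinoma with features of the alveolar epithelium. Its members EMP1, EMP2, EMP3 and PMP22 were chosen by family membership after large differences of EMP3 between dose, clean air and non-exposed cells were known from these arrays. A transcript cluster, the gene-level unit of the Clariom D array, counted for a member where its annotation gave that symbol alone. This held for 3 of the 4 members, with 1 cluster each among 135750 analysed clusters. PMP22 was not analysed here because none of the annotated clusters carried its symbol. All values of EMP3 between groups are therefore descriptions of the values it was chosen for. EMP1 and EMP2 were tested in the linear model across all clusters.

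Cells at the air-liquid interface received dimethylamine, a volatile alkaline amine, for 60 min and then recovered for 23 h, in 3 cycles over 72 h. The dose groups were LD (14.9 ppm), MD (41.1 ppm) and HD (81.7 ppm). Clean air control cells (CA) had the same flow without the amine and non-exposed control cells (NEC) had no flow. Each of the 5 groups had 3 arrays, and each array was a pool of 2 wells, so the spread is that between pools of 1 cell line. All LD arrays carried the label exposure plate 1, all MD arrays plate 5 and all HD arrays plate 6, while CA and NEC had 1 array on each of these plates. Concentration and plate can thus be separated only through the CA and NEC arrays of the same plate. The spread of a dose group is within 1 plate label, while that of CA or NEC is across 3. The linear model joins both kinds in 1 estimate of spread. Its SE, intervals and p-values for a dose therefore do not rest on replicate plates of that dose. The layout in the series text has 4 vapour wells per plate and a dose needed 6, so that a plate number may cover more than 1 physical plate.

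EMP1, EMP2, EMP3 and PMP22 are small glycoproteins that cross the membrane several times, and they are related to the claudins of tight junctions. PMP22 is a component of compact myelin. EMP2 is known to control the surface delivery of integrins and the activity of focal adhesion kinase and Src, EMP1 is found at epithelial cell contacts, and EMP3 carries the MAM blood group antigen on red cells and has been described in growth factor receptor signalling of tumour cells.

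EMP3 is encoded on chromosome 19 (GRCh38, 48325552 to 48330553, plus strand), EMP1 on chromosome 12 (13196726 to 13219941, plus strand) and EMP2 on chromosome 16 (10528422 to 10580598, minus strand), as the array annotation and RefSeq place them. The 250 bases before the annotated start of each gene are shown, from RefSeq (GRCh38.p14), as a description. They cover chr19:48325302-48325551 for EMP3, chr12:13196476-13196725 for EMP1 and chr16:10580599-10580848 for EMP2, each written 5′ to 3′ on the strand of the gene. Capitals mark matches, on either strand, to 6 motifs that were chosen with the results known. A link between these bases and the signals of the genes was not tested.
EMP3: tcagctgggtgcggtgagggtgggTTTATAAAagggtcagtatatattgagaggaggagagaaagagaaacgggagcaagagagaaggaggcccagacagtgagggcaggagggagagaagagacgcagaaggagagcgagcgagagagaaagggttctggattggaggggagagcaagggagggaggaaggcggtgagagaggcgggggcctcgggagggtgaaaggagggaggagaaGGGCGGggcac
EMP1: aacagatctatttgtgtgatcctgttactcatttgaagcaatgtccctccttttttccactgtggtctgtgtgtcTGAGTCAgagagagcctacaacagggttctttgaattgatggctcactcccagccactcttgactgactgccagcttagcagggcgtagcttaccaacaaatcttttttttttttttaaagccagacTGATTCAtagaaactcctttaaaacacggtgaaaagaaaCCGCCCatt
EMP2: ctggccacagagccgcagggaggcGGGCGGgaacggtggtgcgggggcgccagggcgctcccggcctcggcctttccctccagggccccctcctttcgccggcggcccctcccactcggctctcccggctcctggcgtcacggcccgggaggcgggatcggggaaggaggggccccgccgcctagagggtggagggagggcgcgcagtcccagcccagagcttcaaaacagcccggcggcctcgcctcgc
The motifs were TGANTCA (AP-1), TGATGNAA (a composite site of CHOP and ATF4), TGACNNNGC (the antioxidant response element), GGAATG (TEAD), GGGCGG (the GC box of Sp1) and TATAAA (the TATA box). The EMP1 stretch held TGANTCA at 175 and 48 bases before the start, a motif found in 6.57% of 35116 promoter stretches of this length. The EMP3 stretch held TATAAA, read on opposite strands with shared letters, at 226 and 224 bases before the start, against 10.7% of all stretches. Each of the 3 stretches held 1 GC box, which 42.6% of all stretches had. The motifs TGATGNAA (3.14% of stretches), TGACNNNGC (10.9%) and GGAATG (11.9%) had no match in them. The stretches also differed in base composition, with 59.2% G and C in EMP3, 42.4% in EMP1 and 77.2% in EMP2, against a median of 58% over all stretches. A second annotated start of EMP3 was not shown, and its stretch held none of the 6 motifs.

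Over all clusters, r between any pair of arrays was 0.974 to 0.984. The mean log2 signal of the 5994 bright protein-coding clusters differed between arrays, from 10.46 to 11.15. Spearman's rho with this mean was 0.611 for EMP1, 0.304 for EMP2 and 0.382 for EMP3. After centring the arrays on these clusters, HD differed from CA by 0.95 in EMP1, -0.56 in EMP2 and 2.44 in EMP3. The median of the negative control clusters, 4.67 on average and between 4.30 and 4.85 on the arrays, marks the level near which a change cannot be sized. All 10 markers of A549 and other epithelial cells were above it, with array means of 14.98 to 15.63. Array means were 4.85 to 5.57 for 7 leukocyte markers (2 below the negative controls in all groups), 5.41 to 5.98 for 6 fibroblast markers (3 below), 3.55 to 4.41 for 5 endothelial markers (4 below) and 4.55 to 5.33 for 3 Schwann cell markers (1 below). Single markers departed from these means. In the group means, COL1A1 was at 9.52 to 10.34 and LYZ at 7.33 to 8.12, while the epithelial marker EPCAM was at 6.86 to 7.94. AKR1B10, AKR1C1, AKR1C2 and ALDH1A1, at 19.18 to 19.93, raised the epithelial mean. In such bulk samples, a change in RNA per cell and a change in the share of cells with that RNA cannot be told apart.

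EMP3 had its lowest signals without flow, intermediate signals in clean air and its highest signals under dimethylamine. On the NEC arrays of plates 1, 5 and 6, EMP3 had a log2 signal of 9.56, 10.14 and 9.82. On the CA arrays of the same plates, it had 11.53, 12.11 and 12.64. On the 3 LD arrays, EMP3 had 13.34, 13.11 and 13.31. On the MD arrays it had 13.50, 13.94 and 14.37, and on the HD arrays 14.30, 14.56 and 14.96. The group means were thus ordered NEC (9.84 ± 0.29), CA (12.09 ± 0.56), LD (13.25 ± 0.12), MD (13.94 ± 0.44) and HD (14.60 ± 0.33; SD, n = 3 each). Neighbouring groups in this order did not overlap, except HD and MD, where the lowest HD array was below the highest MD array.

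**Figure D1:**
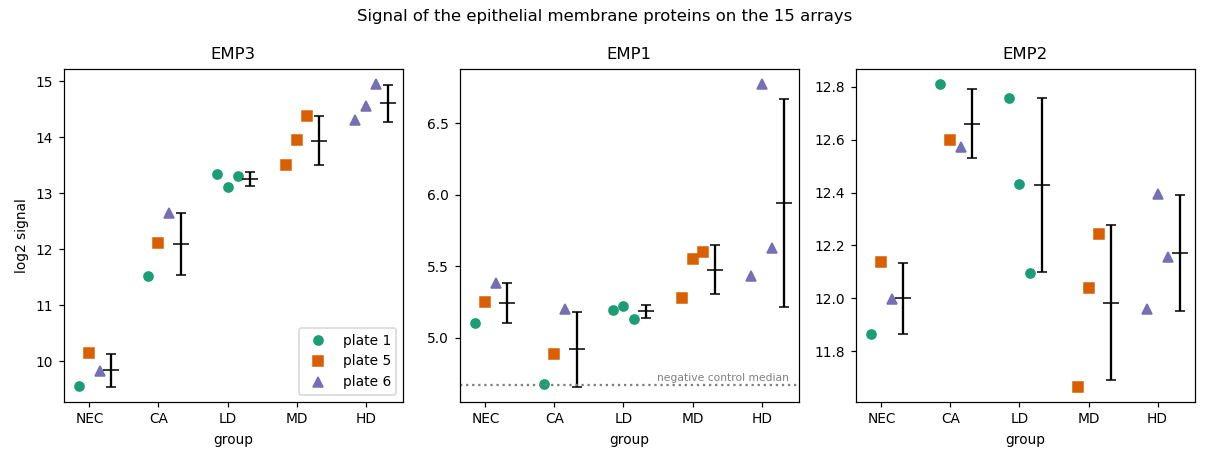
Log2 signal of EMP3, EMP1 and EMP2 on each array of NEC, CA, LD, MD and HD, with a vertical axis of its own for each gene. Points are arrays, shaped and coloured by exposure plate, the black marks are group means with SD (n = 3), and the dotted line is the mean negative control median of 4.67. EMP3 spans 9.56 to 14.96, EMP2 stays between 11.67 and 12.81, and EMP1 stays near the dotted line except for 1 HD array at 6.77.

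The comparison of CA with NEC asks what the flow of air changed in the absence of the amine. EMP3 was 4.76-fold higher in CA than in NEC (log2 2.25, SE 0.29, 95% interval 1.64 to 2.86). The CA arrays were higher than the NEC arrays by 1.97 on plate 1, by 1.96 on plate 5 and by 2.82 on plate 6. All CA arrays lay above all NEC arrays, as held in the same direction for 4.59% of all clusters. None of the 3 members was called at an adjusted p below 0.05 in this comparison, in which 0% of the clusters were called, with or without the plate as a block. EMP3 had the smallest unadjusted p of all clusters (rank 1), and 3337 clusters were higher and 4044 lower in CA at an unadjusted p below 0.05. With 1 array left out at a time, EMP3 was called in 1 of 6 fits. That fit lacked CA replicate 1, the lowest CA array of EMP3, and gave a log2 difference of 2.53. Without CA replicate 3 the difference was 1.98. Nothing is read from the rank of EMP3 or from that call, because EMP3 was chosen for its differences.

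EMP2 was also higher in CA than in NEC, by a smaller amount that did not pass the test. EMP2 had a log2 signal of 12.81, 12.60 and 12.57 on the CA arrays of plates 1, 5 and 6, against 11.87, 12.14 and 12.00 on the NEC arrays. The difference was 0.66 (SE 0.22, 95% interval 0.20 to 1.12, limma adjusted p = 0.853), and it was 0.94, 0.46 and 0.58 within plates 1, 5 and 6. All CA arrays of EMP2 were above all NEC arrays, as for 4.59% of clusters.

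EMP1 had a negative difference within each plate. EMP1 had 4.68, 4.88 and 5.20 on the CA arrays and 5.10, 5.25 and 5.38 on the NEC arrays of plates 1, 5 and 6. The difference was -0.32 (SE 0.28, 95% interval -0.91 to 0.27, limma adjusted p = 0.968), with -0.42, -0.36 and -0.18 within the plates, and the groups overlapped. These signals were close to the negative controls, where the size of a difference is uncertain.

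The comparison of the doses with CA asks what dimethylamine changed beyond the flow. EMP3 was higher than CA at every concentration. The fold difference was 2.24 for LD (log2 1.16, SE 0.29, 95% interval 0.55 to 1.77), 3.60 for MD (log2 1.85, SE 0.29, 1.24 to 2.46) and 5.71 for HD (log2 2.51, SE 0.29, 1.91 to 3.12). In each of these comparisons all dose arrays were above all CA arrays, as for 4.25% of clusters in LD, 5.18% in MD and 5.19% in HD. EMP3 was the only one of the 3 measured members called, and only in HD, where 0.0435% of all clusters were called, and nothing is read from that count because EMP3 was chosen for it. In LD and MD, 0% of clusters were called, while at an unadjusted p below 0.05 there were 3683 clusters higher and 4934 lower in LD, and 3809 higher and 4569 lower in MD. With the plate as a block, EMP3 was no longer called in HD (log2 2.25, SE 0.32, adjusted p = 0.0512), a fit in which 0.00737% of clusters were called.

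Within plates, the differences of EMP3 between the concentrations depended on the control array they were set against. The mean of the dose arrays was higher than the CA array by 1.72 in LD (1.58 to 1.81 over the arrays), by 1.83 in MD (1.39 to 2.27) and by 1.97 in HD (1.66 to 2.32). The ranges of the 3 doses against CA overlapped. Against the NEC array of the same plate, the dose mean was higher by 3.70 in LD (3.56 to 3.78), by 3.80 in MD (3.36 to 4.23) and by 4.78 in HD (4.48 to 5.13), and the HD range was above those of LD and MD. The CA array of plate 6 was also further above its NEC array than those of plates 1 and 5. With the plate as a block, HD and LD differed by 0.66 (SE 0.41, 95% interval -0.22 to 1.54), against 1.35 (SE 0.29, 0.74 to 1.96) without it, and MD and LD by 0.10 (SE 0.41, -0.78 to 0.98), against 0.69 (SE 0.29, 0.08 to 1.29). HD and MD differed by 0.56 with the block (SE 0.41, -0.32 to 1.44) and by 0.67 without it (SE 0.29, 0.06 to 1.28). The CA arrays alone spanned 11.53 on plate 1 to 12.64 on plate 6, in the same order as the doses on those plates. The blocked intervals include 0 for all 3 pairs and, for HD against LD and MD, also differences of more than 2-fold, so that a dependence of EMP3 on concentration was not resolved within plates. Only 1 CA and 1 NEC array per plate stand behind each of these values.

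**Figure D2:**
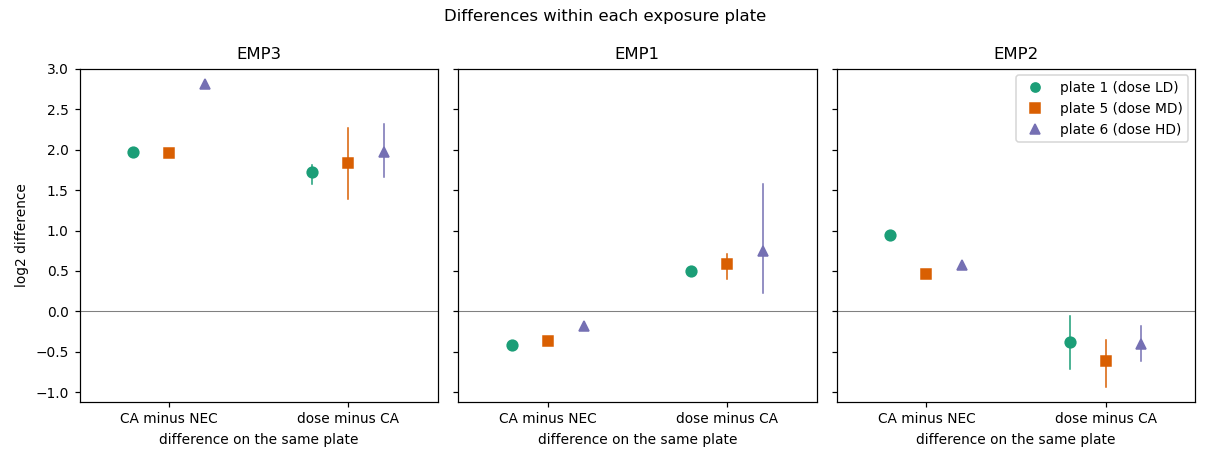
Log2 differences of EMP3, EMP1 and EMP2 within exposure plates 1 (LD), 5 (MD) and 6 (HD). On the left of each panel is the CA array minus the NEC array, and on the right the mean of the 3 dose arrays minus the CA array, with a line over the range of the dose arrays. EMP3 lies at 1.96 to 2.82 for the flow and at 1.72 to 1.97 for the dose, while EMP1 and EMP2 change sign between the left and the right. The same CA array enters both sides of a plate with opposite signs, so its error alone can give such a change.

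The pairs of doses were also set against each other across plates. All HD arrays were above all LD arrays for EMP3 and EMP1, as for 7.73% of clusters, and all MD arrays above all LD arrays for both, as for 7.83%. None of the 3 members was called between doses, where 0.0155% of clusters were called for HD against LD, and 0% for HD against MD and for MD against LD. At an unadjusted p below 0.05 there were 3049 clusters higher and 2951 lower in HD than in MD, and 6168 higher and 5471 lower in MD than in LD. The fitted slope of EMP3 over CA, LD, MD and HD was 0.0282 log2 units per ppm (SE 0.0033), and 0.115% of clusters had a called slope, EMP3 among them. The slope includes CA, so that a step from CA to every dose also gives a slope without a graded response. It describes values for which EMP3 was chosen. With the plate as a block the slope was 0.0225 (SE 0.0041) and was not called, in a fit in which 0.00442% of clusters were called. The slopes of EMP1 (0.0122 per ppm, adjusted p = 0.239) and EMP2 (-0.0060 per ppm, adjusted p = 0.559) were not called.

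EMP2 had the opposite sign to EMP3 in the comparisons with CA. EMP2 had 12.81, 12.60 and 12.57 on the CA arrays, 12.76, 12.43 and 12.10 on the LD arrays, 11.67, 12.04 and 12.24 on the MD arrays and 11.96, 12.40 and 12.16 on the HD arrays. All MD and all HD arrays were below all CA arrays, as for 6.23% of clusters in MD and 5.61% in HD, and the LD arrays overlapped with CA. The differences from CA were -0.23 in LD (SE 0.22, limma adjusted p = 0.917), -0.68 in MD (SE 0.22, adjusted p = 0.707) and -0.49 in HD (SE 0.22, adjusted p = 0.760), and none was called. Within plates the dose means differed from CA by -0.38 in LD, -0.61 in MD and -0.40 in HD. Against NEC, EMP2 differed by 0.43 in LD, -0.02 in MD and 0.17 in HD, with adjusted p of at least 0.756 and overlapping arrays in each case.

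EMP1 had higher signals in MD and HD than in CA without passing the test. EMP1 had 4.68, 4.88 and 5.20 on the CA arrays, 5.19, 5.23 and 5.13 on the LD arrays, 5.28, 5.55 and 5.60 on the MD arrays and 5.43, 6.77 and 5.62 on the HD arrays. All MD and all HD arrays were above all CA arrays, as for 5.18% of clusters in MD and 5.19% in HD. The differences from CA were 0.26 in LD (SE 0.28, limma adjusted p = 0.933), 0.55 in MD (SE 0.28, adjusted p = 0.820) and 1.02 in HD (SE 0.28, adjusted p = 0.380). The HD value rested in part on replicate 2, without which the difference was 0.61. Within plates, EMP1 was above CA by 0.50 in LD, 0.59 in MD and 0.74 in HD.

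Against NEC, which differs from the doses by both the flow and the amine, EMP3 had the largest fold differences. EMP3 was 10.7-fold higher in LD than in NEC (log2 3.41, SE 0.29), 17.1-fold in MD (log2 4.10, SE 0.29) and 27.2-fold in HD (log2 4.77, SE 0.29). In each of the 3 comparisons EMP3 had the smallest p of all clusters and no cluster had a higher log2 difference (0%). EMP3 was called in all of them and EMP1 and EMP2 in none, where 0.00147% of clusters were called in LD, 0.0147% in MD and 0.236% in HD. All dose arrays of EMP3 were above all NEC arrays, as for 4.32% of clusters in LD, 5.21% in MD and 6.2% in HD. EMP3 stayed called with the plate as a block (3.84, 3.94 and 4.50 in LD, MD and HD, SE 0.32 each), in comparisons that called 0.000737%, 0.00147% and 0.0869% of clusters. As EMP3 was chosen for its differences, nothing is read from its ranks or calls against NEC, nor from their contrast with EMP1 and EMP2. EMP1 was 0.70 higher in HD than in NEC (SE 0.28, adjusted p = 0.492), a difference of 0.28 without HD replicate 2. The difference of HD from NEC is the sum of that of HD from CA and that of CA from NEC, which share the CA arrays. For EMP3 those parts were 2.51 and 2.25.

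**Figure D3:**
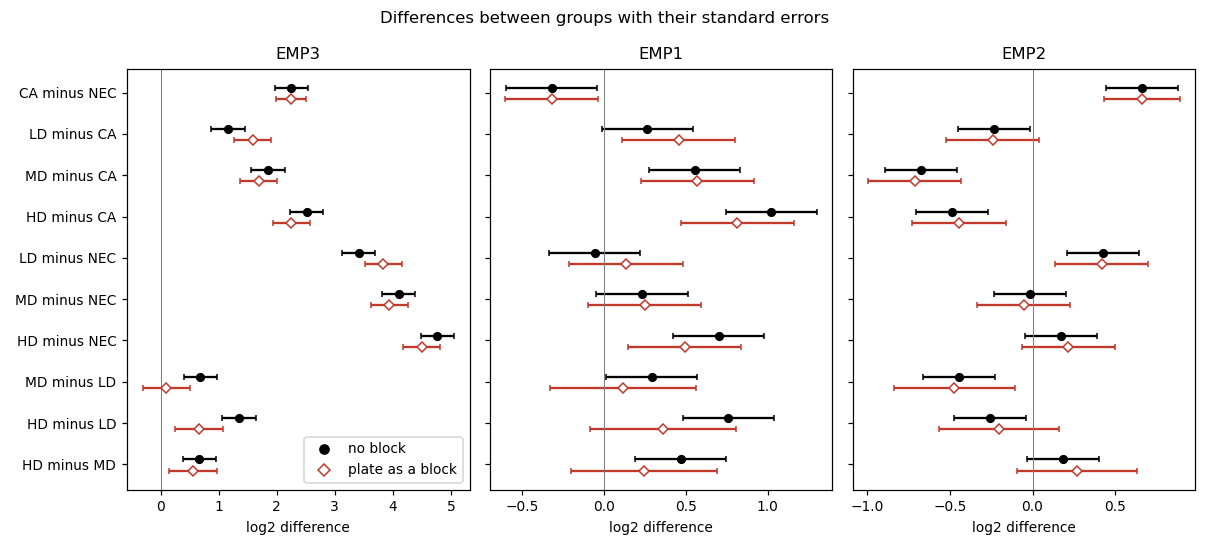
Log2 differences between groups for EMP3, EMP1 and EMP2, with standard errors, from the linear model without a block (filled circles) and from that with a term for exposure plate (open diamonds). Each panel has its own horizontal axis. The values of EMP3 are all above 0, and its differences of HD and MD from LD are nearer to 0 with the block (0.66 and 0.10) than without it (1.35 and 0.69).

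The changes of the members were also set against each other. The difference between EMP1 and EMP2 on each array changed by 1.51 in HD against CA (SE 0.37) and by -0.98 in CA against NEC (SE 0.23). These values share the CA arrays, which enter them with opposite signs, so their opposite signs are not independent. The arrays of the groups did not overlap, but the exact two-sided permutation p was 0.10 in both, the smallest that 3 arrays against 3 allow, so that this test could not pass the threshold. Since EMP3 was chosen for its differences, its pairs are given as descriptions. The change of EMP2 minus that of EMP3 was -3.00 in HD against CA and -1.59 in CA against NEC, and for EMP1 minus EMP3 the values were -1.49 and -2.57. Over the 15 arrays EMP1 and EMP3 correlated at r = 0.497 (Spearman 0.736), EMP2 and EMP3 at 0.060 (Spearman -0.011) and EMP1 and EMP2 at -0.181 (Spearman -0.332), as a description of arrays that share plates and controls. After the group means were removed, the 3 correlations were 0.340, 0.287 and 0.447.

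The genes whose signals followed EMP3 most closely were taken from 9102 protein-coding genes with a mean log2 signal of at least 6, by Pearson r over the 15 arrays. They were KRT19, a keratin of simple epithelia (r = 0.947), CCSER1 (0.940), ALDH3A1, an aldehyde dehydrogenase (0.934), S100A4, a calcium-binding protein (0.929), and CAPN2, the large subunit of a calpain protease (0.929). Spearman's rho lay between 0.886 and 0.950. With the group means removed, r was 0.734 for KRT19, 0.561 for CCSER1, 0.400 for ALDH3A1, 0.455 for S100A4 and 0.384 for CAPN2. The difference of CA from NEC was 0.82 for KRT19, 0.44 for CCSER1, 1.11 for ALDH3A1, 1.05 for S100A4 and 0.57 for CAPN2. For EMP3, which was chosen for its differences, it was 2.25. The differences of HD from CA were 0.99, 0.69, 0.47, 1.04 and 0.88 in the same order. Their limma adjusted p-values were 0.36, 0.45, 0.77, 0.39 and 0.17, and none was called. These genes were picked by r with EMP3 on these arrays, so a similar pattern follows from the choice. KRT19 belongs to the epithelial markers, whose array means were 14.98 to 15.20 in NEC, 15.23 to 15.51 in CA, 14.99 to 15.42 in LD, 15.18 to 15.55 in MD and 15.29 to 15.63 in HD, and its part in the values of EMP3 was not tested. The other markers did not share 1 direction. CDH1, the adhesion molecule E-cadherin, averaged 8.24 in HD and 9.35 in CA, EPCAM averaged 7.65 in HD and 7.94 in CA, and KRT7, KRT8 and KRT18 had higher means in HD (14.72, 18.04 and 15.62) than in CA (14.07, 17.77 and 15.09). AKR1C1, AKR1C2 and ALDH1A1 were near the upper end of the scale in every group, at means of 19.89 to 19.93, where differences are compressed.

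**Figure D4:**
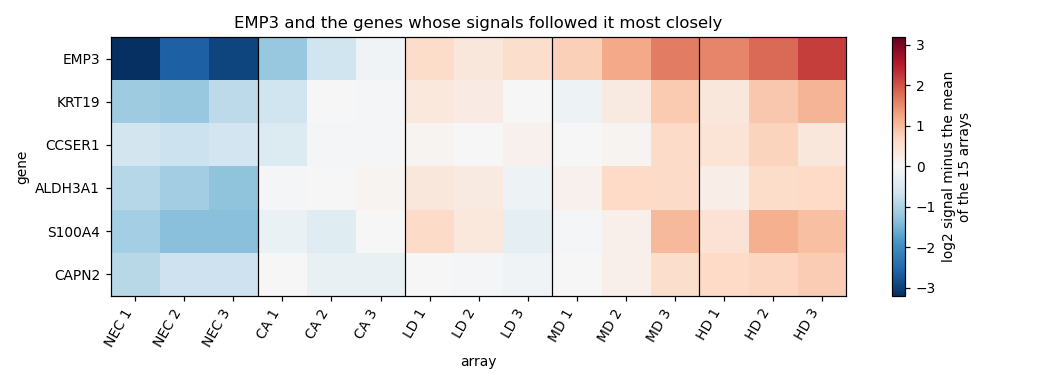
Log2 signal of EMP3 and of the 5 protein-coding genes with the highest Pearson r to it, minus each gene's mean over the 15 arrays, by array. Blue is below and red above the mean. All 6 genes are lowest on the NEC arrays, and EMP3, chosen for its differences, has the widest range. The 5 genes were picked by r with EMP3 on these arrays, so a shared order follows from the choice.

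EMP1 was most like ACTA2, the smooth muscle actin (r = 0.907, Spearman 0.757), UPP1, uridine phosphorylase (0.886, Spearman 0.779), and SRFBP1, which binds serum response factor (0.859, Spearman 0.839). With the group means removed, r was still 0.89, 0.90 and 0.81, so much of this likeness lay between arrays of the same group. EMP1 was close to the negative controls apart from HD replicate 2 (6.77), a single array that can weigh on r. EMP2 was most like PRKAG1, a subunit of AMP-activated kinase (r = 0.897, Spearman 0.911), RFWD3, a ubiquitin ligase (0.867, Spearman 0.854), and NDUFA1, a subunit of respiratory complex I (0.857, Spearman 0.882). For these 3 genes, r was 0.81, 0.76 and 0.88 with the group means removed. PRKAG1, RFWD3 and NDUFA1 were 0.33, 0.75 and 0.45 higher in CA than in NEC, next to 0.66 for EMP2. Their differences of HD from CA were -0.31, -0.31 and -0.21 (limma adjusted p = 0.874, 0.879 and 0.945), next to -0.49 for EMP2. The 3 genes were picked by r with EMP2 on these arrays, so a similar pattern follows from the choice.

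Relatives of the family with the same membrane topology were measured for 19 of 20 listed genes. None was called in any comparison, in which at most 0.236% of all clusters were called. The median difference of the 19 genes was -0.03 in HD from CA and 0.03 in CA from NEC, next to -0.01 and -0.01 over all clusters. Of the 19 genes, 1 was higher and 1 lower in HD than in CA at an unadjusted p below 0.05, next to 4187 higher and 4481 lower of all 135750 clusters. The smallest p-values in HD against CA were those of CLDND2 (0.61, SE 0.26, adjusted p = 0.737), TMEM178A (-0.58, SE 0.26, adjusted p = 0.762) and CACNG6 (0.47, SE 0.23, adjusted p = 0.792), the last a calcium channel subunit. In CA against NEC they were those of PERP, a desmosomal target of p53 (0.53, SE 0.23, adjusted p = 0.910), GSG1 (-0.39, SE 0.22) and CACNG7 (-0.55, SE 0.31). GSG1, CACNG6 and CACNG7 were below the negative controls in all groups.

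Known or proposed binding partners of the family, which include integrins, the kinases PTK2 and SRC, growth factor receptors and junction proteins, were measured for 18 of 18 genes. None was called in any comparison, in which at most 0.236% of all clusters were called. The median difference of the 18 genes was -0.0002 in HD from CA and 0.24 in CA from NEC, next to -0.01 and -0.01 over all clusters. At an unadjusted p below 0.05, 2 of the 18 genes were higher and 1 lower in HD than in CA. In CA against NEC, 0 were higher and 0 lower. ITGA6, the laminin-binding integrin chain, was 0.94 higher in HD than in CA (SE 0.22, adjusted p = 0.271) and EGFR, the epidermal growth factor receptor, 1.01 higher (SE 0.26, adjusted p = 0.319). TGFBR2, a receptor of transforming growth factor beta described as a partner of EMP3, differed by -0.67 (SE 0.24, adjusted p = 0.639). In CA against NEC the smallest p-values were those of ERBB2 (0.48, SE 0.24, adjusted p = 0.917), CAV1, the coat protein of caveolae (0.42, SE 0.25, adjusted p = 0.946), and ITGB4, the partner chain of ITGA6 (0.52, SE 0.34, adjusted p = 0.953). P2RX7, a receptor for extracellular ATP that the family binds, was below the negative controls in all groups.

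Of the growth-arrest-specific genes, the class in which PMP22 was first described in mouse fibroblasts, 4 of 6 were measured. None was called in any comparison, in which at most 0.236% of all clusters were called. GAS1, GAS2 and GAS7 were below the negative controls in all groups, and GAS6, a ligand of the TAM receptors, was at 5.03 to 5.68 in the group means. The median difference of the 4 measured genes was 0.10 in HD from CA and -0.11 in CA from NEC, next to -0.01 and -0.01 over all clusters.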

How the data were processed

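RNA was measured on 15 Clariom D arrays, each from a pool of 2 wells of A549 cells. The deposited values are log2 signals that the authors made with the Transcriptome Analysis Console by RMA (robust multi-array average). RMA gives the probes of all arrays a common distribution, so a change shared by most genes would not be seen. After removal of 2995 control clusters, 135750 remained. Of these, 36176 had exactly 1 symbol, updated through RefSeq tables (25516 matched by Entrez identifier, 9899 by symbol, 623 by an older symbol, 138 by none). For a symbol with several clusters the one with the highest mean was kept.

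One linear model with 5 groups was fitted with lmFit and eBayes of limma 3.58.1 (R 4.3.3; the data.table package, version 1.17.8; figures with Python 3.11.15, pandas 2.3.3 and matplotlib 3.10.9), with 10 degrees of freedom from the residuals and 6.32 from the prior. Tests were two-sided, with p-values adjusted by Benjamini-Hochberg over all clusters and called below 0.05. Precision is limited by the small number of arrays (3 in each group). By the labels, each CA array shares its plate with a NEC array, and in a second fit the plate was a block (8 residual degrees of freedom). The deviations of a CA array and a NEC array, each from its group mean, correlated at r = 0.261, 0.070 and 0.204 on plates 1, 5 and 6, and at -0.223 to 0.065 across plates. Pairs of members were compared by exact permutation.

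The members and lists were chosen with earlier results of these data known. Named were the members in every comparison, from each list up to 3 genes of smallest p in HD against CA and up to 3 more in CA against NEC, and, by r, the 5 genes most like EMP3 and the 3 most like EMP1 and EMP2. Other choices of normalization, filter, groups, moderation and replicates were tried.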

Additional observations from a re-analysis of the deposited data

How the results depend on the processing

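The exposure plate as a replicate block ended the call of EMP3 in HD against CA (log2 2.25, adjusted p = 0.0512) and its called slope (0.0225, adjusted p = 0.150), with 10 clusters called in place of 59 in HD against CA. It turned the sign of EMP1 in LD against NEC (0.13, not called), and changed no other call of a member. The cause was not tested.

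In HD against CA, EMP3 (2.51) lost its call when only the groups compared were fitted (adjusted p = 0.183, 0 clusters called, which has fewer residual degrees of freedom) and without moderation (adjusted p = 0.0878, 7 clusters). Without moderation it also lost its calls in LD against NEC (3.41, adjusted p = 0.0820) and for the slope (0.0282, adjusted p = 0.0735). With the model fitted and the p-values adjusted over protein-coding genes only, 142 clusters were called in HD against CA. In that fit EMP3 was called in CA against NEC (2.25), MD against CA (1.85) and HD against LD (1.35). In CA against NEC, EMP3 was also called after quantile normalization (2.26, adjusted p = 0.0196) and after centring on bright clusters (2.19, adjusted p = 0.0244). With NEC in place of CA, 321 clusters were called for HD, EMP3 was called in LD (3.41) and MD (4.10), and the signs turned for EMP2 in LD (0.43) and HD (0.17) and for EMP1 in LD (-0.058).

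Leaving out 1 array at a time gave 6 to 13 clusters called in HD against CA. EMP3 stayed between 2.23 and 2.79 in HD against CA, called in 6 of 6 fits, and between 1.98 and 2.53 in CA against NEC, called in 1 of 6 (without CA replicate 1, adjusted p = 0.0329). Its slope was between 0.0257 and 0.0307, called in 12 of 12. EMP2 in MD against NEC ranged from -0.15 to 0.14, with its sign turned without MD replicate 1 or NEC replicate 2 (0.051), and EMP1 in LD against NEC from -0.13 to 0.0098, turned without NEC replicate 3, none of them called. The alternatives for MD and LD against NEC and, other than the replicate number as a block, for MD against LD were added after the data were seen. The replicate number as a block changed no call or sign of a member between doses. Averaging all clusters of a member gave no other value, since each had 1. The signal of EMP1, close to the negative controls, limits the size of its differences.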
